A study of Mus musculus with 6 samples.

Results

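The genes described here encode 3 beta subunits of the sodium pump (Atp1b1, Atp1b2 and Atp1b3) and 4 FXYD proteins that regulate it (Fxyd1, Fxyd2, Fxyd3 and Fxyd6). They were read on every probe set that the array annotation gives to a single gene of this set, 15 of the 45101 probe sets of the array. RNA came from cochlear sensory epithelia (CSE) of Swiss Webster mice at postnatal day 3 (P3) and at 8 weeks (adult), with no genotype or treatment given. Each stage was measured on 3 arrays, and each array held a separate pool of 40 epithelia from 20 mice. The stria vascularis, spiral ligament and modiolus were dissected away, and the paper describes most, not all, of the spiral ganglion as removed. P3 tissue also kept the epithelial ridges that flank the hair cells, and adult tissue the inner sulcus and the interdental cells of the limbus. CSE is a mixture of cell types, so more cells of a type and more RNA per cell cannot be told apart in these pools.

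The sodium pump moves sodium out of cells and potassium in, at the cost of ATP. Its alpha subunit binds the ions and splits ATP, its beta subunit is a glycoprotein that the alpha subunit needs to fold and to reach the cell surface, and FXYD proteins are small membrane proteins that tune its affinity and rate. In the cochlea the pump helps to keep endolymph, the fluid over the hair bundles, rich in potassium. It is abundant in the marginal cells of the stria vascularis, in fibrocytes of the spiral ligament and in neurons.

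Promoters of the genes whose signal differed between the stages are shown beside that of Fxyd1, whose signal did not pass the test, so that their base composition can be compared. RefSeq windows of build GRCm38.p6, from 250 bases before to 50 after a start site, were found for 5 of the 7 genes, and the first window of each is printed. Capitals mark matches on either strand to the TATA box (letters TATAAA), the CCAAT box (its name gives its letters) and the GC box (letters GGGCGG).
Atp1b1, chr1:164458306-164458605, minus strand: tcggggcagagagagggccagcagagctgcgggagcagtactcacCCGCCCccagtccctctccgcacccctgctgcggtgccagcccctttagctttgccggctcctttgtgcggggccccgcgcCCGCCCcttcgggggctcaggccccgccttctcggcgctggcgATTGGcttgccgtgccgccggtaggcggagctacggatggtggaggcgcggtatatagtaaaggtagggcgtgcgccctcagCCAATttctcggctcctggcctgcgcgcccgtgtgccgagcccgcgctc
Atp1b3, chr9:96364382-96364681, minus strand: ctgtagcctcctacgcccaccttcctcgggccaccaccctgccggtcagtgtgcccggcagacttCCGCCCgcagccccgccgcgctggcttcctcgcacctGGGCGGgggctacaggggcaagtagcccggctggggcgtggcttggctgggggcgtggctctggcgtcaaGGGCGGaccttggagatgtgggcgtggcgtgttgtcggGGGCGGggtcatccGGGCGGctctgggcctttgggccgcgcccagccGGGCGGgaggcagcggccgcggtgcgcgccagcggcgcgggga
Fxyd6, chr9:45369935-45370234, plus strand: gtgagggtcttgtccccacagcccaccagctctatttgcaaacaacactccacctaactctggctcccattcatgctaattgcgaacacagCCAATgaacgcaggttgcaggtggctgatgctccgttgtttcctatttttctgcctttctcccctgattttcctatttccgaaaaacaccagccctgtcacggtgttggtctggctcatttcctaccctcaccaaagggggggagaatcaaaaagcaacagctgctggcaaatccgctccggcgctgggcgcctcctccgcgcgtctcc
Fxyd3, chr7:31076648-31076947, minus strand: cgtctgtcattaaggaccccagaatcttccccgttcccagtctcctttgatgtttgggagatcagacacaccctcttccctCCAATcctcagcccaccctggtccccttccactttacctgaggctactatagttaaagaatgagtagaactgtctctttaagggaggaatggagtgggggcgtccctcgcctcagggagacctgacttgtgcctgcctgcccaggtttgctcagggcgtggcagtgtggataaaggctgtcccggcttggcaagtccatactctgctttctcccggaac
Fxyd1, chr7:31054804-31055103, minus strand: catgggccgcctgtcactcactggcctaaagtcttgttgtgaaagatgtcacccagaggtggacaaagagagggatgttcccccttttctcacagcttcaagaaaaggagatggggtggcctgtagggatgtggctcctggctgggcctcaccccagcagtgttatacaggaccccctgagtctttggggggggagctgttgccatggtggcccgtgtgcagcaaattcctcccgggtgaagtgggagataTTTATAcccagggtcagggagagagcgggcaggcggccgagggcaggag

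The windows of the beta subunit genes were richer in G and C than those of the FXYD genes. GC content was 71.0% for Atp1b1 and 76.0% for Atp1b3, against 54.3% for Fxyd6, 55.0% for Fxyd3 and 58.7% for Fxyd1, with a median of 52.7% over all 32851 windows. Atp1b3 held 6 matches to GGGCGG and Atp1b1 held 2, and the printed FXYD windows held none, where 35.7% of all windows hold at least 1. The second Atp1b3 window, not printed, was 74.7% G and C and had no GC box match. CCAAT was matched at 2 places in Atp1b1 and at 1 each in Fxyd6 and Fxyd3, where 37.4% of all windows hold it. Only the Fxyd1 window among those printed matched TATAAA, which 13.6% of all windows hold, with its first base 1 base past the start site and on the opposite strand. None of these windows held TGTTCT, a half-site of the glucocorticoid receptor, against 19.0% of all windows. A match is a run of letters and not a binding site, and no match speaks only of these letters in this window.

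Signals are MAS5.0 intensities on a linear scale, and signals of single genes were compared only within a probe set. The sums given for cell type markers add signals of different probe sets, so the brightest probe sets of a list weigh most in them. A probe set was tested if it rose above the background level of its array on at least 3 of the 6 arrays, as 14 of the 15 did. It was called at a limma adjusted p under 0.05, by Benjamini-Hochberg over all 29036 probe sets tested, with at least a 2-fold difference. SE is limma's standard error on the log2 scale, intervals are 95% intervals from the same fit, and every log2 ratio is adult over P3. The 3 values of a stage stand in the order of replicates 1, 2 and 3. The smallest p that an exact permutation test of 3 arrays against 3 can reach is 0.1, so the text says instead whether the arrays of the stages overlapped. P3 replicate 1 stood apart from the other arrays, with a 3' to 5' signal ratio of 82.0 for Gapdh, a control of RNA integrity, against 0.707 to 2.07, and with a background level of 34.5 against 6.29 to 16.3. Values of the 7 genes are therefore also given without that array.

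Of the 14 probe sets tested, 10 were called higher in the adult CSE, where 3.39% of all tested probe sets were, and none was called higher at P3, where 3.87% were (7.26% in either direction). The 10 called probe sets belong to 6 of the 7 genes, with Fxyd1 as the exception. Several probe sets of a gene read transcripts of that gene, not always the same ones, and are not replicates of each other. Their log2 ratios ran from 1.40 to 2.91. The median over the 14 was 2.04, against 0.04 over all probe sets tested. The adult arrays lay above all P3 arrays on 13 of the 14, whereas 15.5% of all tested probe sets showed this. With 1 array dropped at a time the count of 10 was 11, 7 and 4 for P3 replicates 1, 2 and 3 and 7, 6 and 2 for adult replicates 1, 2 and 3.

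**Figure D1:**
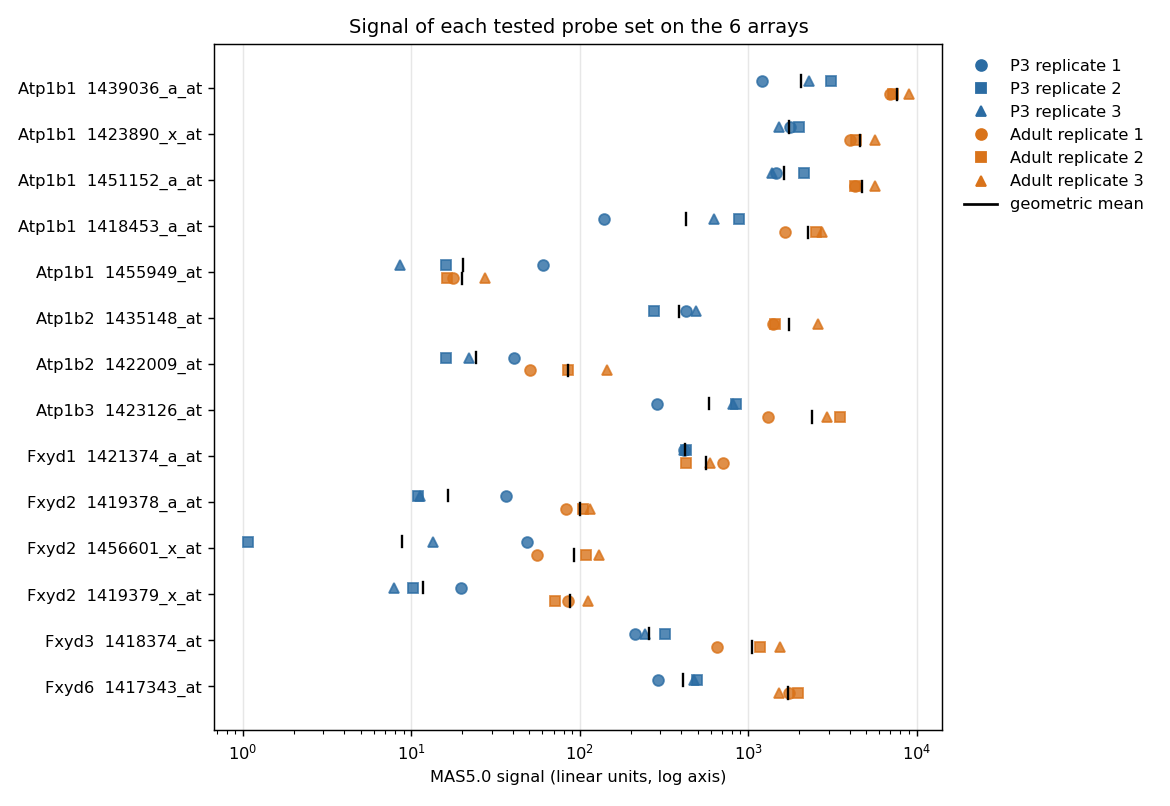
MAS5.0 signal (log axis) of the 14 tested probe sets on each array, with blue symbols for P3, orange symbols for adult, the replicate by symbol shape and a black bar at each geometric mean. Adult and P3 arrays overlap only on Atp1b1 1455949_at, and Fxyd1 shows the smallest gap between stages among the others.

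Atp1b1, the beta subunit found most widely across tissues, was read by 5 probe sets, of which 4 were called higher in the adult by 2.64-fold to 5.30-fold. Probe set 1439036_a_at read 1212, 3112 and 2309 at P3 and 6927, 7207 and 9053 in the adult. Every adult array was above every P3 array, and P3 replicate 1 was the lowest. Its mean rose from 2211 ± 954 to 7729 ± 1155 (SD, n = 3), a log2 ratio of 1.90 with an SE of 0.39 (limma adjusted p = 0.0232). Probe sets 1423890_x_at and 1451152_a_at, annotated to the same cDNA, gave log2 ratios of 1.40 and 1.54, with SEs of 0.27 and 0.29 (limma adjusted p = 0.0193 and 0.0171). On the former the P3 signals lay between 1520.2 and 2009.5 and the adult signals between 4038 and 5647.

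The probe sets of Atp1b1 placed P3 replicate 1 differently. Probe set 1418453_a_at read 139.9 there, against 881 and 629.5 on the other P3 arrays and 1652, 2535 and 2759 in the adult. Its signal on P3 replicate 1 was 0.185 times the mean of the other P3 arrays, where the ratio was 0.447 for 1439036_a_at and 1.00 for 1423890_x_at. The log2 ratio of 1418453_a_at was 2.41 with an SE of 0.61 (limma adjusted p = 0.0496) and became 1.60 without P3 replicate 1 (adjusted p = 0.0157). The high 3' to 5' ratio of that array moves with this value, and its part in it was not tested. The remaining probe set, 1455949_at, was dim and moved the other way on that array, at 60.2 against 16.1 and 8.54 on the other P3 arrays and 16.3 to 27.2 in the adult. The stages overlapped on it, with a log2 ratio of -0.03 (95% interval -1.72 to 1.67, limma adjusted p = 0.988) that was 0.76 without P3 replicate 1.

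Calls of Atp1b1 depended on single arrays. Without P3 replicate 1, 1439036_a_at, 1423890_x_at and 1451152_a_at stayed called, at log2 ratios of 1.52, 1.40 and 1.46 (limma adjusted p = 0.00924, 0.0135 and 0.0155). Without adult replicate 3 all 4 were lost, at adjusted p values of 0.120, 0.115, 0.102 and 0.186 for 1439036_a_at, 1423890_x_at, 1451152_a_at and 1418453_a_at, with log2 ratios of 1.78, 1.26, 1.41 and 2.26. Without P3 replicate 3 they were lost as well (adjusted p = 0.0570, 0.0759, 0.0679 and 0.0722). Probe set 1423890_x_at was not called without P3 replicate 2 (adjusted p = 0.0687), 1439036_a_at without adult replicate 1 or 2 (0.0533 and 0.0587), and 1418453_a_at without adult replicate 1 or 2 (0.0841 and 0.116).

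Atp1b2, the beta subunit also known as an adhesion molecule on glia, was higher in the adult CSE by 4.51-fold (95% interval 2.69 to 7.54). Its brighter probe set, 1435148_at, read 427, 274.5 and 491 at P3 and 1410.5, 1443 and 2587 in the adult. The P3 arrays did not reach the adult ones, and adult replicate 3 was the highest. The log2 ratio was 2.17 with an SE of 0.33 (limma adjusted p = 0.00709), and the call held with any single array left out, at adjusted p values from 0.0111 to 0.0366. The dimmer 1422009_at gave 40.6, 16.1 and 21.9 at P3 and 50.8, 85.0 and 145 in the adult. Those groups did not overlap either, but its log2 ratio of 1.82 (SE 0.51) was not called at a limma adjusted p of 0.0677, and was 2.19 without P3 replicate 1 (adjusted p = 0.0279).

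Atp1b3, the third beta subunit, had 1 probe set and was higher in the adult by 4.10-fold (95% interval 1.85 to 9.08). Signals were 287, 841 and 815 at P3 and 1308, 3532 and 2927 in the adult. Replicate 1 was the lowest array of both stages, at 0.346 times the mean of the other P3 arrays and 0.405 times that of the other adult arrays, yet the stages did not overlap. Its log2 ratio was 2.03 with an SE of 0.50 (limma adjusted p = 0.0453). This call held without adult replicate 1 (adjusted p = 0.0325) and was lost without each other array, with log2 ratios of 1.52 to 2.30 and adjusted p values of 0.0528, 0.0609 and 0.0670 without P3 replicates 1, 2 and 3 and of 0.117 and 0.180 without adult replicates 2 and 3.

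Fxyd6, known as phosphohippolin and described in brain and inner ear, showed the lowest adjusted p of the set. Signals of 292, 496 and 477 at P3 stood against 1737, 1976 and 1517 in the adult. The lowest adult array was thus well above the highest P3 array. The mean rose from 422 ± 113 to 1743 ± 229 (SD, n = 3), by 4.22-fold (95% interval 2.76 to 6.45) or a log2 ratio of 2.08 with an SE of 0.27 (limma adjusted p = 0.00409). The call held whichever array was dropped, at log2 ratios of 1.83 (P3 replicate 1, adjusted p = 0.00369) to 2.21, but it was lost when arrays were scaled to the same median (log2 ratio 2.10, limma adjusted p = 0.0718).

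Fxyd3, an FXYD protein of epithelia such as stomach and colon, was 4.14-fold higher in the adult (95% interval 2.44 to 7.04). It read 213, 320.03 and 245 at P3 and 655, 1168 and 1555 in the adult. The adult arrays spread more widely than those of P3, and adult replicate 1 was the lowest of them. The log2 ratio was 2.05 with an SE of 0.34 (limma adjusted p = 0.01002), while without P3 replicate 1 it was 1.92 (adjusted p = 0.0198). The call was lost without adult replicate 3 (log2 ratio 1.77, adjusted p = 0.0516).

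Fxyd2, the gamma subunit of the kidney pump, was read by 4 probe sets and was near background at P3. Probe set 1419378_a_at gave 36.4, 10.9 and 11.3 at P3, where the background levels were 34.5, 9.16 and 6.29, and 83.2, 104 and 116 in the adult. Probe set 1419379_x_at gave 19.8, 10.2 and 7.86 at P3, below background on P3 replicate 1, and 85.1, 71.6 and 111 in the adult. On both, all adult arrays were above all P3 arrays. The differences were 6.08-fold (95% interval 2.68 to 13.8, limma adjusted p = 0.0213) and 7.52-fold (95% interval 3.57 to 15.8, adjusted p = 0.00967). The size of these folds depended on how low signals were handled. With the mean background added to every signal they were 1.85 and 1.96 on the log2 scale in place of 2.60 and 2.91, both still called.

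On 1456601_x_at the P3 signals were 48.4, 1.06 and 13.4 and the adult signals 55.6, 108.5 and 129.5, a log2 ratio of 3.38 with a wide interval (0.65 to 6.12, limma adjusted p = 0.130). Single arrays moved it, to 4.61 without P3 replicate 1, where it was called (adjusted p = 0.0285), and to 1.86 without P3 replicate 2 (adjusted p = 0.162). It was also called, at 2.35, with signals floored at background (adjusted p = 0.0328). Probe set 1449883_at, annotated to a non-coding transcript of the gene, lay below background on all 6 arrays, between 0.288 and 1.92, and was not tested. Without P3 replicate 1 the log2 ratios of 1419378_a_at and 1419379_x_at were 3.18 and 3.29 (adjusted p = 0.00259 and 0.00335). The call of 1419378_a_at was lost without any other array (adjusted p = 0.0652 and 0.0677 without P3 replicates 2 and 3, and 0.0514, 0.0633 and 0.119 without adult replicates 1, 2 and 3). That of 1419379_x_at was lost only without adult replicate 3 (adjusted p = 0.0772).

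Fxyd1, or phospholemman, the FXYD protein of heart and skeletal muscle, was the gene of the set with no called probe set. The P3 arrays read 418, 425 and 418 and the adult arrays 705, 428 and 593.5. The P3 signals were nearly equal, and the lowest adult array was only just above them. Its log2 ratio was 0.42 (SE 0.24, 95% interval -0.12 to 0.97, limma adjusted p = 0.326), so the interval holds a rise of up to 1.95-fold and a small fall. Without P3 replicate 1 it was also 0.42 (adjusted p = 0.309). Its probe set was also the 1 of 14 whose highest adult array was adult replicate 1.

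**Figure D2:**
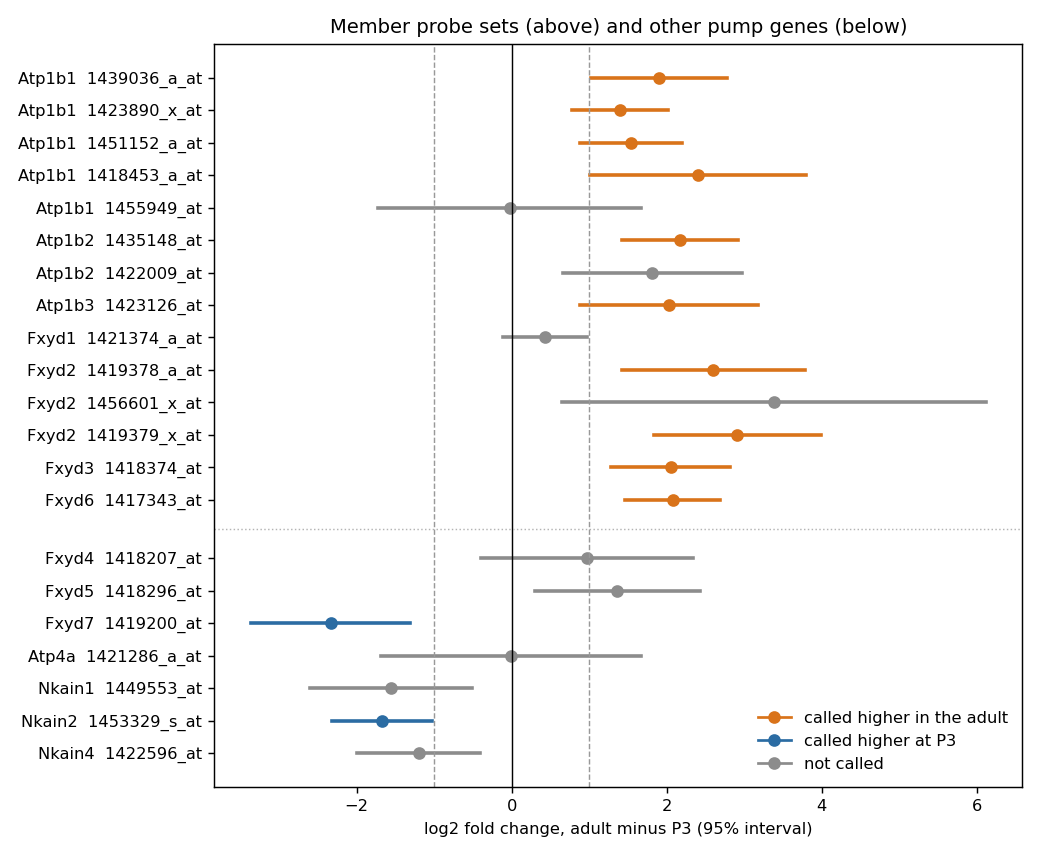
Difference of log2 signal between adult and P3 (horizontal axis) with its 95% interval for the 14 tested probe sets and, under the dotted line, for 7 other genes of the pump, with orange for called higher in the adult, blue for called higher at P3 and grey for not called. Dashed lines mark a 2-fold difference, and Fxyd7 and Nkain2 are the genes called higher at P3.

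FXYD genes lie close to each other in the mouse genome, and those on chromosome 7 had log2 ratios of both signs. In the RefSeq order of protein-coding genes on chromosome 7, Fxyd5, Fxyd7 and Fxyd1 follow each other, and Lgi4 lies between Fxyd1 and Fxyd3. Fxyd7, an FXYD protein of brain, went the opposite way from Fxyd3, with 86.0, 60.4 and 134 at P3 and 24.8, 17.9 and 12.2 in the adult. Its log2 ratio was -2.33 with an SE of 0.45 (limma adjusted p = 0.0189). Fxyd5, or dysadherin, which weakens cell adhesion, overlapped between stages, at 158, 66.1 and 84.2 at P3 and 467, 215 and 149.7 in the adult (log2 ratio 1.36, limma adjusted p = 0.120). Fxyd6 and Fxyd2 are direct neighbours on chromosome 9, and both were called higher in the adult. Fxyd4, which acts in kidney collecting duct and colon, read 9.21 to 9.42 at P3 and 11.6 to 25.2 in the adult (log2 ratio 0.97, limma adjusted p = 0.373).

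Other genes of the pump and its relatives were also listed. Of 15 such genes, 11 were annotated and 7 tested, of which 2 were called as falling into the adult and none as rising, where 3.87% and 3.39% of all tested probe sets were, so that a count of none is near the background share. Nkain2, of a family of membrane proteins that interact with the pump in neural tissue, was called beside Fxyd7 and had a log2 ratio of -1.68 with an SE of 0.28 (limma adjusted p = 0.0115). Atp1b4, whose protein acts in the muscle nucleus rather than in the pump of placental mammals, was below background on all arrays, as was Atp12a. Atp1a4, the alpha subunit of sperm, was above background on 1 array, and the other alpha subunits were not analysed here. The count of 2 was 0 when adult replicate 3 was dropped and 1 when P3 replicate 3 was.

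Genes listed for the potassium cycle of the cochlear lateral wall rose in part. The list is not specific to that wall, which was dissected away. Its Gjb2 and Gjb6 are also listed below for supporting cells, and its Slc12a2, Kcnq1, Kcne1 and Kcnj10 for strial cells. Of 12 genes listed, 9 were annotated and tested, 4 were called as rising into the adult and none as falling, against the 3.39% and 3.87% of all probe sets. Gjb6, connexin 30 of cochlear gap junctions, read 610 to 943 at P3 and 2472 to 4563 in the adult, a log2 ratio of 2.19 with an SE of 0.32 (limma adjusted p = 0.00664). Slc12a7, a potassium chloride cotransporter, rose by a log2 ratio of 2.04 (SE 0.24) and Kcnj10, an inward rectifier channel of strial intermediate cells and glia, by 1.85 (SE 0.35). Kcnj16, which forms channels with Kcnj10, rose by 4.42 (SE 0.31). The paper had already selected Kcnj16 as higher in the adult on these same arrays, so its call is no separate evidence. The count of 4 was 3 when P3 replicate 3 or either of adult replicates 2 and 3 was dropped.

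Kinases and corticosteroid genes, listed for a possible link to the pump and not all acting on it directly, changed in both directions. All 12 were tested, 3 were called as rising and 1 as falling, where 3.39% and 3.87% of all tested probe sets were. Nr3c2, the mineralocorticoid receptor, rose by a log2 ratio of 1.57 (limma adjusted p = 0.00927, SE 0.25), Sgk1, a kinase induced by corticosteroids, by 1.14 (SE 0.25) and Sik1, a salt-inducible kinase, by 1.41 (SE 0.34). Hsd11b2, the enzyme that inactivates corticosterone, fell by 4.04 on that scale (SE 0.76, limma adjusted p = 0.0171), from signals of 70.7 to 168 at P3 to 1.88 to 12.3 in the adult, where only 1 of 3 arrays was above background, so the size of its fall is not settled. The count of 4 was 2 without replicate 2 or replicate 3 of either stage.

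**Figure D3:**
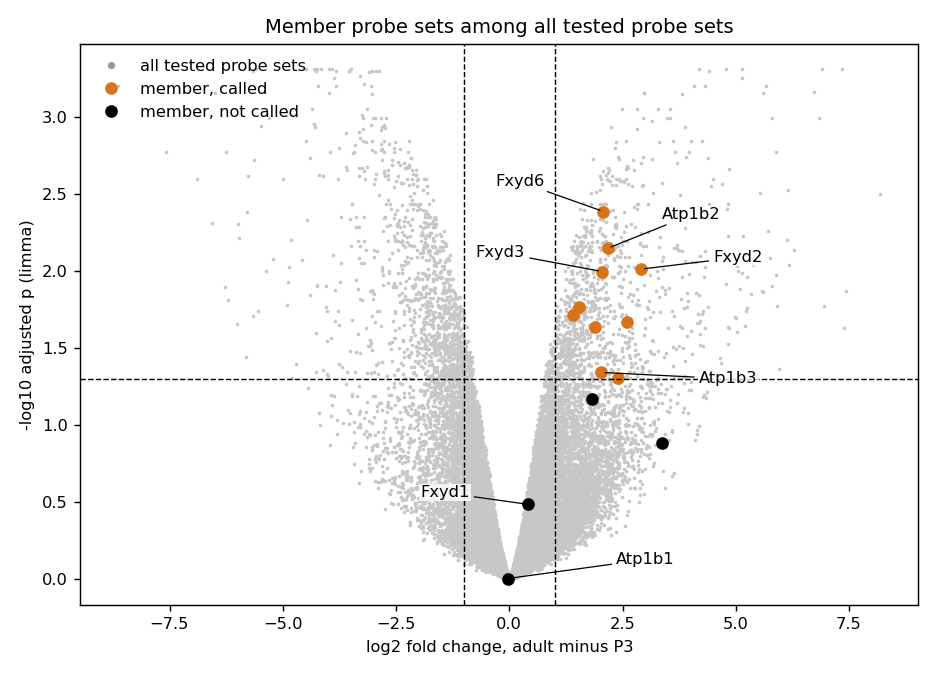
Log2 ratio of adult to P3 signal (horizontal axis) against -log10 of the limma adjusted p (vertical axis) of all 29036 tested probe sets in grey, with called probe sets of the 7 genes in orange and those not called in black, with 1 labelled probe set per gene. The 10 orange points lie to the right of the line for a 2-fold rise and above the line for an adjusted p of 0.05.

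Over the 6 arrays, the genes whose log2 signal was most like that of Atp1b1 were Zbtb18, Gm9558 and Sptbn1 (Pearson's r = 0.998, 0.996 and 0.996). Those most like Atp1b2 were Mrc2, Tspan15 and Slc7a8 (0.995, 0.992 and 0.991), and those most like Atp1b3 were Tspo, Tmem176a and Crim1 (0.998, 0.997 and 0.997). For Fxyd6 they were Ttc38, Kif5b and Tmx4 (0.999, 0.998 and 0.996), for Fxyd3 Paqr8, Sik1 and Dnase1 (0.994, 0.994 and 0.994), and for Fxyd2 Slc2a1, Zmpste24 and Lyrm9 (0.996, 0.994 and 0.993). Fxyd1, which did not pass the test, was most like Tmem179, Dst and Slc1a3 (0.994, 0.992 and 0.990). These values describe 6 points that fall into 2 stages, and each of the 7 genes had between 117 and 258 of 13743 genes with an r above 0.95.

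Single adult arrays recurred at the ends of the range. Adult replicate 1 was the lowest adult array on 10 of the 14 probe sets, and adult replicate 3 the highest on 11. In the summed signal of 12 markers of strial marginal and intermediate cells, adult replicate 1 gave 6084 against 13172 and 16337 on the other adult arrays, and the P3 arrays gave 5537 to 7581. In that of 12 neuronal markers adult replicate 1 was instead the highest, with 25656, against 8959 and 13829 on adult replicates 2 and 3 and 5389 to 6380 at P3. Adult replicate 1 also had the highest Gapdh 3' to 5' ratio of the adult arrays, 2.07 against 0.921 and 1.22. Its background level was likewise the highest of them, at 16.3 against 9.05 and 8.71. The part of these cell types and of RNA integrity in the signals of the sodium pump genes was not tested.

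Marker lists of cell types are read against the 3.39% of all tested probe sets called higher in the adult and the 3.87% called higher at P3. In lists this short a count of none is near those shares, and a count of 1 says little about a cell type. Some listed genes were already selected by the paper as differing between the stages on these same arrays. They are Sox2, Jag1, Tecta, Tectb and Hes5 for P3, and Gfap, Mobp, Ngp, Prg2, Prl and Gh for the adult. Counts that include them are no separate evidence. Of 11 tested strial markers, 1 rose in the adult (Kcnj10, counted above among the potassium genes) and 1 fell, and Tyrp1 was below background. Slc12a2 alone gave 2950 to 5237 of the strial sum at P3 and 3733 to 6901 in the adult. Dct, which was not called, differed more between adult arrays, with 1197 on replicate 1 against 4484 and 5477 on replicates 2 and 3. Spiral ligament fibrocyte markers, summed over 7 genes, ran from 11229 to 28318 at P3 and from 25384 to 35386 in the adult. Of these genes, 3 rose in the adult (Coch and Otos among them) and 1 fell. The sums overlapped only through P3 replicate 1, where Car3, which was not called, read 21522 of the 28318. P3 replicates 2 and 3 gave 13234 and 11229. The stria vascularis and the spiral ligament were both removed in the dissection.

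Of 12 neuronal markers 3 rose in the adult and 1 fell. Glial lists included astrocyte markers, with 3 of 7 called higher in the adult and sums of 2857 to 3674 at P3 and 7402 to 12795 in the adult. S100b, which other cells express too, carried that rise, and in a sum left without it after its values were seen the P3 arrays gave 1547, 1831 and 1570.1 and the adult arrays 5096, 1236 and 1193, so that only adult replicate 1 was above P3. Central myelin gave 1 of 6 tested called, with sums of 2162 to 4235 and 2516 to 7842 (Olig2 below background). Peripheral myelin sums were 6191 to 10899 and 5595 to 21140, with none of 7 that rose and 1 that fell.

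None of 7 tested hair cell markers was called, with sums of 582 to 725 at P3 and 481 to 697 in the adult and Slc26a5, the motor protein of outer hair cells, below background on all arrays. Of 12 supporting cell markers 5 were called higher at P3 and 1 in the adult (Gjb6, counted above among the potassium genes). Their sums were 12682 to 20246 and 7764 to 12452, and Tectb alone read 10637 of the 20246 on P3 replicate 1.

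Granulocyte markers were called higher in the adult in 8 of 8, with sums of 116 to 343 and 3794 to 17004, erythroid markers in 2 of 5 (73.1 to 157 and 248 to 1020) and bone markers in 2 of 6 (916 to 2065 and 1762 to 3130). Pituitary markers were called in 2 of 3 (44.7 to 73.6 and 291 to 3494) and choroid plexus markers in 1 of 7 (2686 to 5241 and 2612 to 2720). Skeletal muscle, where Fxyd1 is abundant, gave none of 3 and sums of 70.4 to 197 and 54.3 to 115, with Myh4 and Tnnc2 below background.

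**Figure D4:**
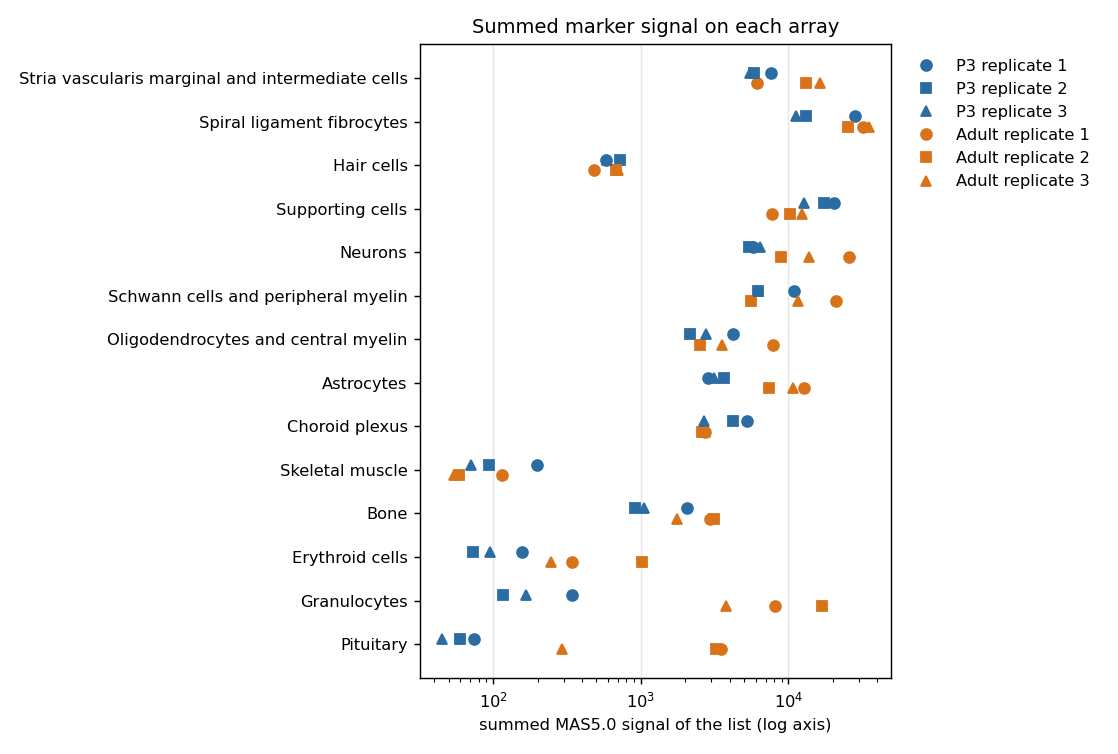
Summed MAS5.0 signal (log axis) of each marker list on the 6 arrays, with blue for P3, orange for adult and the replicate by symbol shape. Adult replicate 1 is the lowest adult array for strial markers and the highest for neuronal markers.

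Fxyd6 and the brighter probe set of Atp1b2 were the 2 of 10 called probe sets that kept their call without each array in turn. Scaling all arrays to the same median left 3 calls, those of Atp1b2 1435148_at, Fxyd2 1419378_a_at and Fxyd2 1419379_x_at, and the call of Fxyd6 was lost. A fit with no intensity trend left 3 calls, those of Atp1b2 1435148_at, Fxyd2 1419379_x_at and Fxyd6. All 10 called probe sets kept their direction in each of these fits.

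**Figure D5:**
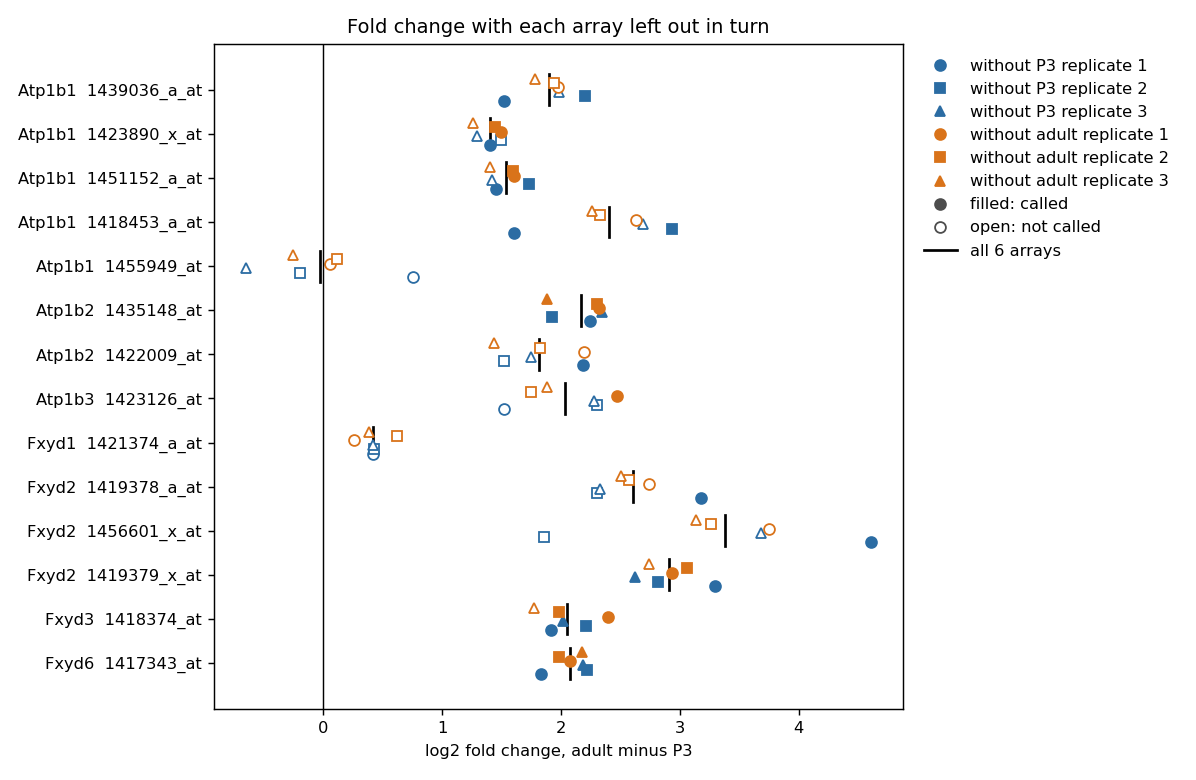
Difference of log2 signal between adult and P3 (horizontal axis) of the 14 tested probe sets with each array left out in turn, blue for a P3 array and orange for an adult array, filled where the probe set was called and open where it was not, with a black bar at the value from all 6 arrays. Filled symbols at every position are seen for Fxyd6 and Atp1b2 1435148_at only.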

How the data were processed

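RNA from 6 pools of CSE (3 at P3, 3 adult) was hybridized by the authors to Affymetrix Mouse Genome 430 2.0 arrays, after amplification with an oligo-dT primer, which favours the 3' end of transcripts. The deposited intensities are linear MAS5.0 signals, computed by the authors with GCOS (version 1.2 in the submitters' processing notes) and Expression Console and scaled by array. The mean of each array after trimming 2% at each end was 100. No further normalization was applied, and 0 columns were left unmatched. The pools are separate dissections, and 3 arrays per stage limit the precision.

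Genes were named from an array annotation of 2016, in which 34945 probe sets name 1 gene. The background level of an array was the 90th percentile of 83 probe sets for olfactory, vomeronasal and taste receptors. Log2 signals were fitted with limma 3.58.1 in R 4.3.3 (intensity trend, stage as the only factor). The authors' SAM test was replaced by limma with the same limits on fold change and false discovery rate, since few relabellings of 3 against 3 arrays exist. Their filter on MAS5.0 detection calls was replaced by the background level above. The paper reports more differential transcripts than the probe sets called here. The fit was tested on simulated data. A gene of a list was read at its tested probe set of highest mean signal, and likeness is Pearson's r of log2 signals at that probe set. The text names every member probe set, the called genes of the pathway lists (up to 4 per direction) and all FXYD genes. Genes and lists were chosen with earlier results of these data known. Alternatives were quantile and median scaling, other filters, floored or raised low signals, no trend, a replicate block, each array left out, arithmetic means, the mean over a gene's probe sets and, added after seeing the data, array weights. Promoter windows came from RefSeq (GRCm38.p6).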

Additional observations from a re-analysis of the deposited data

How the results depend on the processing

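Over 224 refits of the 14 tested probe sets, the direction was kept in 220. The other 4 concern the dim probe set 1455949_at of Atp1b1, at 0.76, 0.06 and 0.12 without P3 replicate 1, adult replicate 1 and adult replicate 2 (-0.65 to 0.76 with each array left out) and 0.94 with array weights. The 10 called probe sets became 3 with arrays scaled to the same median and 3 without the intensity trend, and 2 to 11 with each array left out. With the same settings the 10 called genes of the pathway lists became 4, 6 and 5 to 13, and 17 with array weights, chosen after seeing the data. All differential probe sets numbered 2109, against 564 with median scaling, 899 without the trend, 7593 with array weights and 576 to 2839 with each array left out. Neither the labels nor the paper says whether arrays with the same replicate number were handled together. Deviations of arrays with the same number correlated at 0.18, 0.21 and 0.08. Each P3 array correlated best with the adult array of its own number, though P3 replicate 3 also reached 0.05 with adult replicate 2. The replicate 1 arrays were also those with the highest Gapdh 3' to 5' ratio and background level of their stage. These correlations do not settle whether arrays were handled together. A replicate block gave 2649 differential probe sets and 10 called in the set, with 4 in place of 2 among other pump genes. The cause of these changes was not tested. Signals near background limit the values of Fxyd2 at P3 and Hsd11b2 in the adult, and 3 arrays per stage limit the rest.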
